A study of Homo sapiens with 3 samples.

Results

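The regions described here are the short gaps, 4 to 28 nt long, between neighbouring targets of 100 nt in the probe design of a branchpoint capture experiment. They were found by sorting the target intervals of chromosomes 1 to 22 by start and taking each neighbouring pair in which both intervals were exactly 100 nt wide and 4 to 28 nt apart. The rule gave 3012 pairs out of 286754 neighbouring pairs of 100 nt targets (1.05%), and the whole design held 377858 intervals. They are compared with the 90100 pairs of 100 nt targets that lay 60 to 200 nt apart. The study captured ribosome-depleted total RNA from K562, a human erythroid and myeloid leukaemia cell line, in 3 libraries from biological replicates of 1 group, with ERCC spike-in RNA brought to 1.08% in replicate 3 and 1% in replicates 1 and 2. The target list is common to the 3 libraries, so it has no replicate error. Reads and read depths were not analysed here.

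When an intron is removed, its first base is linked to a branchpoint, an internal base close to the downstream exon. The design aimed probes at intron ends and left exons out. A gap between targets is then often an exon. Exons far shorter than the usual ones are called microexons. In human and mouse many of them are included mainly in neurons, and they often keep the reading frame because their length is a multiple of 3. A pair of full targets with a short gap can also arise in another way, from the ends of a single intron only slightly longer than both targets together. In the rule a gap is taken as 1 nt longer than the exon it holds, so gaps of 4 to 28 nt correspond to exons of 3 to 27 nt or to introns of 205 to 229 nt, and a gap that leaves 1 when divided by 3 corresponds to an exon of a multiple of 3.

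The interval list is on the hg19 build and the annotation used here, GENCODE release 29, is on GRCh38, so no gap could be given a gene name, a strand or its own sequence. As an example of coding exons at the top of this size range, 27 nt exons of a pair of transmembrane collagen genes were read. The genes were COL13A1 (chromosome 10, plus strand) and COL23A1 (chromosome 5, minus strand). These exons face short gaps in a design rebuilt from GENCODE 29 and were read from its transcript sequences. Exons of other genes were not read. Both genes were chosen after the values were seen, and the sequences are exons of that annotation, not intervals of the deposited list. Capitals mark glycine codons (GGN) in the annotated frame.
COL13A1 exon 4: GGTcccactGGAagacccGGActccca
COL13A1 exon 6: GGAgtaaagGGCcaaccaGGCgagaag
COL13A1 exon 13: GGTcagtgtGGAgagtacccacaccgg
COL13A1 exon 20: GGTgagccaGGGatcccaGGAaccaag
COL23A1 exon 7: GGActtccaGGCccgaaaGGGgaaaag
COL23A1 exon 8: GGTgcaccaGGAgactttGGCccccgg
COL23A1 exon 25: GGCagacccGGGgagccaGGActagat
Each exon holds 9 whole codons. Glycine codons stood at codons 1, 4 and 7 in 7 of 8 such exons of COL13A1 and in 7 of 7 of COL23A1, which is the Gly-X-Y repeat of collagen. COL13A1 exon 13 is the exception, with 2 glycine codons.

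Fewer than 1 in 3 of the pairs lay over 400 nt from the next target on both sides. The distance from a pair to the next target on each side, here called the outer gap, bears on the origin, because the ends of a single intron are bordered by exons whereas the targets around an exon are bordered by introns. Of the 3012 pairs, 911 (30.2%) had both outer gaps over 400 nt and are called far-flanked. Another 1252 (41.6%) had both at most 400 nt and are called near-flanked, and 849 (28.2%) were mixed. Among the 60 to 200 nt pairs far-flanked ones were the commonest and near-flanked ones the rarest, with 61190 (67.9%) far-flanked, 20504 (22.8%) mixed and 8406 (9.33%) near-flanked. The median outer gap of near-flanked short pairs was 122 nt, and that of near-flanked 60 to 200 nt pairs was 130 nt. Among far-flanked pairs the medians were 2768 nt and 2679 nt. The split at 400 nt bounds these medians, so they do not bear on the origin of the pairs.

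A design rebuilt from GENCODE 29 by the stated recipe showed what such gaps are when the annotation is known. It had no repeat or transcription filter, and none of its coordinates was joined to the deposited list. The same rule found 3552 short gaps in it, of which 1150 (32.4%) were annotated exons and 2263 (63.7%) were the middles of annotated introns. The remaining 139 (3.91%) were neither. Its pairs split by outer gaps into 29.3% far-flanked, 29.9% mixed and 40.9% near-flanked. With the basic transcripts alone the split was 23.9%, 22.8% and 53.3%, farther from that of the deposited pairs. Of its far-flanked short gaps, 797 of 1040 (76.6%) were exons. Of its near-flanked short gaps, 64 of 1451 (4.41%) were exons and 1337 (92.1%) were intron middles. At 60 to 200 nt, 88.3% of all gaps and 97.2% of far-flanked gaps were exons. In the set from basic transcripts, 85.9% of far-flanked and 4.14% of near-flanked short gaps were exons. The label microexon thus covers a mixture, and the deposited pairs are called short-gap pairs below. Which deposited gap is an exon and which an intron middle was not tested.

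**Figure D1:**
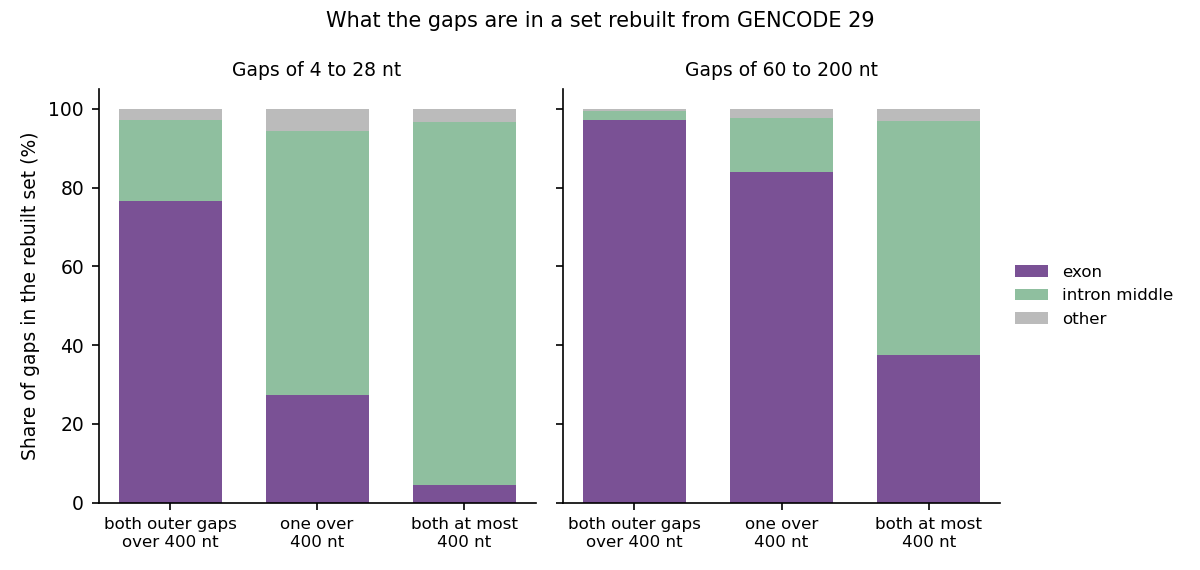
Share of gaps (%) that are annotated exons, middles of annotated introns or neither in the design rebuilt from GENCODE 29, by gap length and by outer gaps. Among gaps of 4 to 28 nt, exons make up 76.6% where both outer gaps exceed 400 nt and 4.41% where both are at most 400 nt.

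Far-flanked short gaps favoured lengths that leave 1 when divided by 3, those of exons that keep the reading frame, more than near-flanked ones did. The window of 25 lengths holds 9 that leave 1 when divided by 3, or 36% of its lengths. Of far-flanked short gaps, 507 (55.7%) left 1, 229 (25.1%) left 0 and 175 (19.2%) left 2. Of near-flanked short gaps, 476 (38.0%) left 1, 364 (29.1%) left 0 and 412 (32.9%) left 2. Counts per single length showed the same contrast. Far-flanked gaps numbered 28 to 104 (median 54) at lengths that leave 1, 19 to 60 (median 23) at lengths that leave 0 and 12 to 47 (median 18) at lengths that leave 2. The corresponding medians for near-flanked gaps were 48, 47.5 and 50. The commonest far-flanked gaps were 28 nt (104 pairs), 25 nt (77) and 22 nt (72), which correspond to exons of 27, 24 and 21 nt. They were followed by 24 nt with 60 pairs, a length that leaves 0.

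**Figure D2:**
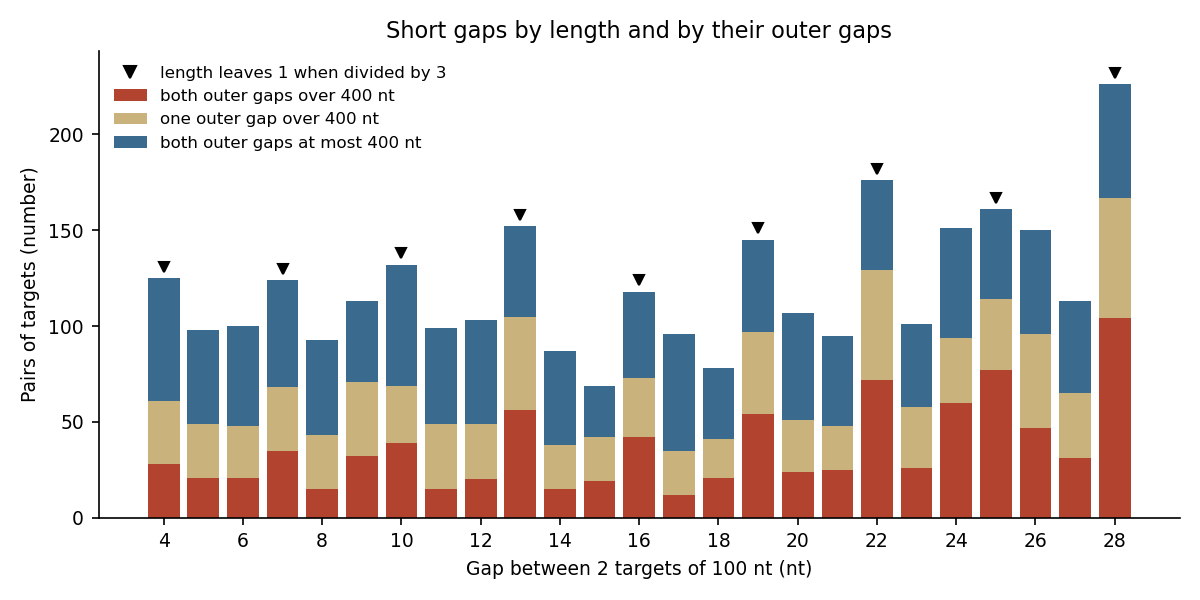
Number of pairs of 100 nt targets at each gap length from 4 to 28 nt, stacked by the outer gaps on both sides; triangles mark lengths that leave 1 when divided by 3. The far-flanked part of the bars stands out at marked lengths, up to 104 pairs at 28 nt. The near-flanked part runs between 27 and 64 pairs. It exceeds the neighbouring lengths at 4, 7, 10 and 28 nt (64, 56, 63 and 59 pairs) but not at the other marked lengths.

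The contrast in remainder recurred across the genome. Averaged over 22 chromosomes, 54.4% ± 9.40 of far-flanked short gaps left 1, against 39.1% ± 7.01 of near-flanked short gaps (SD between chromosomes, n = 22). The difference was 15.3 ± 10.1 percentage points, positive on 20 of 22 chromosomes (exact two-sided sign-flip permutation test, p = 1.9e-06, adjusted 1.34e-05 over 14 tests by the Benjamini-Hochberg method). Chromosomes are blocks of a fixed list and not replicates, so this p says only that the direction recurs. Against far-flanked gaps of 60 to 200 nt, of which 38.5% ± 1.49 left 1, the far-flanked short gaps were higher by 15.9 ± 9.71 points, on 21 of 22 chromosomes (exact permutation p = 9.5e-07, adjusted 1.34e-05). When the window was closed at 27 nt, so that each remainder has 8 lengths, the differences were 12.7 points against near-flanked short gaps (exact permutation p = 1.4e-06) and 10.2 points against far-flanked gaps of 60 to 200 nt (exact permutation p = 4e-05).

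**Figure D3:**
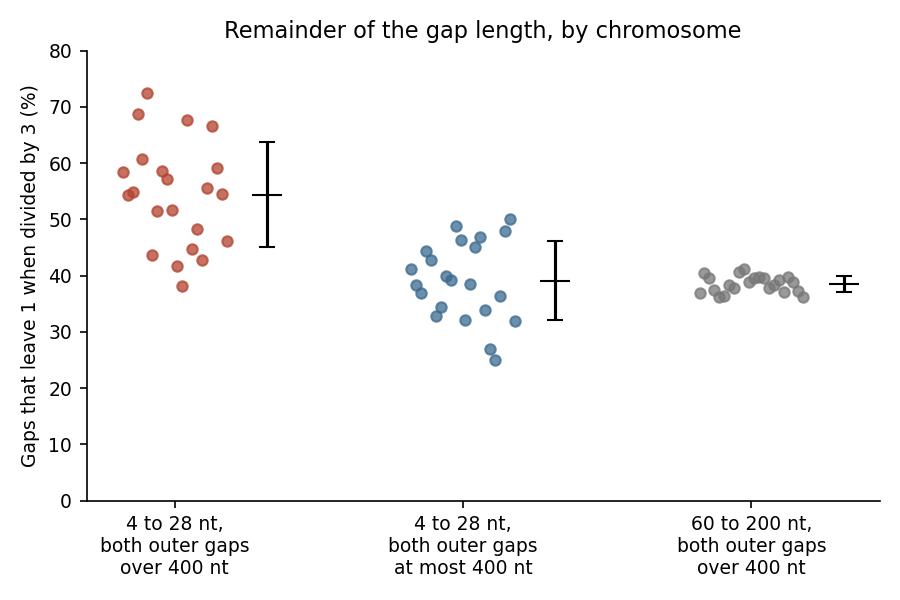
Share of gaps (%) that leave 1 when divided by 3, with 1 point per chromosome and, beside the points, the mean and SD over 22 chromosomes. Far-flanked short gaps average 54.4%, near-flanked short gaps 39.1% and far-flanked gaps of 60 to 200 nt 38.5%.

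Without the split by outer gaps, the remainder of the short gaps did not stand apart securely. Over all 3012 pairs 1359 gaps (45.1%) left 1, against 34784 (38.6%) of the 60 to 200 nt gaps. The difference over chromosomes was 7.44 ± 7.14 points (46.0% ± 6.65 against 38.5% ± 1.33), positive on 19 of 22 (exact permutation p = 0.00015, adjusted 0.000429). The window's last length, 28 nt, leaves 1 and is the commonest of all with 226 pairs. With gaps of 4 to 27 nt the difference was 2.51 points, positive on 14 of 22 chromosomes, and missed the threshold (exact permutation p = 0.068).

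The share was above the near-flanked one in each of 3 size bins. In bins with as many lengths of each remainder, 45.1% of 226 far-flanked gaps of 4 to 12 nt left 1, as did 56.7% of 268 of 13 to 21 nt and 47.6% of 313 of 22 to 27 nt. The near-flanked shares in the same bins were 38.1% of 480, 33.6% of 417 and 31.8% of 296. Outer gaps were longer around shorter far-flanked gaps: the median outer gap was 3880 nt for gaps of 4 to 12 nt, 3070 nt for 13 to 21 nt and 2304 nt for 22 to 28 nt. The smaller of both outer gaps did not differ detectably between far-flanked short-gap pairs and far-flanked 60 to 200 nt pairs, with a mean log10 length of 3.26 and 3.25 (difference 0.017 ± 0.097, exact permutation p = 0.43, adjusted 0.461). It was shorter around far-flanked short gaps that left 1 than around the others, 3.22 against 3.33, but this missed the threshold after adjustment (difference -0.11 ± 0.23 over 21 chromosomes, exact permutation p = 0.035, adjusted 0.0607). Of 2446 outer gaps of 30 to 400 nt beside near-flanked short pairs, 40.8% left 1, against 38.4% of 16006 beside near-flanked 60 to 200 nt pairs. Of 413 outer gaps of 401 to 1000 nt beside far-flanked short pairs, 34.6% did, against 33.1% of 22790 beside far-flanked 60 to 200 nt pairs. These differences were not tested.

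At the edges of the rule, 125 pairs had a gap of 4 nt and 112 a gap of 3 nt, which the rule leaves out. At the other end 226 pairs had 28 nt and 131 had 29 nt. The first 5 far-flanked pairs at the shortest gap, 4 nt or an exon of 3 nt, were on chromosomes 1 and 2. The gap on chromosome 1 from 3311056 to 3311059 had a deposited score of 0 on both sides. That from 20512748 to 20512751 had scores of 19 to its left and 39 to its right, and that from 20987585 to 20987588 had 51 and 74. On chromosome 2, the gap from 26058406 to 26058409 had 0 and 0, and that from 122161026 to 122161029 had 5 and 5. Among these 5 gaps of the same size the scores ran from 0 to 74. Coordinates are hg19 and 1-based. The deposited score is a whole number from 0 to 125 of unstated meaning.

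Short-gap pairs were unevenly spread over the chromosomes. There were 60.98 of them per 1000 pairs of 60 to 200 nt on chromosome 19, the highest, and 12.1 on chromosome 18, the lowest, with a median of 29.7. On chromosome 19, 165 of 260 pairs were near-flanked and 39 (15%) were far-flanked. Chromosome 19 is known for compact genes. Counted within far-flanked pairs only, the rate was 21.4 per 1000 on chromosome 22, 19.0 on chromosome 19, 14.01 at the median and 5.99 on chromosome 18, where it rests on 9 pairs.

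Most pairs stood alone and the rest came in runs. Of the 3012 pairs, 1982 (65.8%) had no other within 20 kb and 1030 (34.2%) had at least 1. In 4 of the 5 largest runs a single length made up more than 1 in 2 of the gaps. On chromosome 6 from 32267598 to 32323021, 14 pairs used only 3 gap lengths, and 13 of the 14 left 1. In order they were 16, 22, 22, 22, 22, 22, 22, 22, 23, 22, 22, 22, 22 and 22 nt, so 12 corresponded to exons of 21 nt. Of these pairs 7 were far-flanked and none near-flanked. On chromosome 10 from 71620348 to 71696639, 10 pairs had gaps of 9, 9, 28, 28, 28, 28, 28, 28, 25 and 28 nt, and 9 of them were far-flanked. On chromosome 5 from 177669130 to 177717470, 11 pairs included 8 of 28 nt. On chromosome 4 from 70800308 to 70825897, 7 pairs all left 1, with gaps of 22, 25, 25, 25, 25, 19 and 28 nt.

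The run on chromosome 2 differed from these in its gap lengths and outer gaps. From 179514059 to 179592310 it held 13 pairs, all near-flanked, with 10 different gap lengths from 4 to 28 nt, of which 5 left 1. Every one of its targets scored 0, as did every target of the runs on chromosomes 4 and 5. In the run on chromosome 6, 1 pair had a score above 0, of 0.5, and in that on chromosome 10, 2 pairs did, of at most 1. Pair score here means the mean of the 2 targets.

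The largest runs of the rebuilt design were in C6orf10 on chromosome 6 (17 pairs, all exons), in TTN on chromosome 2 (15 pairs, 13 of them intron middles), in COL23A1 and PHYKPL on chromosome 5 (12 pairs, 9 of them exons) and in COL13A1 on chromosome 10 (10 pairs, all exons). A run of 7 exon gaps on chromosome 4 was in CSN1S1 and beyond it. TTN encodes titin, the giant elastic protein of the sarcomere, and CSN1S1 encodes a milk casein. These rebuilt runs, looked at after the deposited runs had been seen, were compared with the deposited ones by the order of their gap lengths alone. Of the deposited lengths, 13 of 13 on chromosome 2 and 7 of 7 on chromosome 4 occurred in the same order in the rebuilt run. So did 13 of 14 on chromosome 6, 10 of 11 on chromosome 5 and 9 of 10 on chromosome 10. Lengths could be skipped in either run, and the best-matching large rebuilt run of the same chromosome was taken. Except on chromosome 2, a single repeated length made up most of each deposited run, so many of the matches are of that length. No coordinate was converted, and a shared order of lengths is a description, not an assignment of a gene to an interval. Counted by gene in the rebuilt design, C6orf10 had 17 short exon gaps, COL13A1 had 10, and COL23A1 and TRDN had 8 each. All 8 of TRDN, which encodes triadin of the muscle calcium release complex, left 1, as did 5 of 5 in NRXN3, which encodes the synaptic adhesion protein neurexin 3.

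Scores of short-gap pairs differed by the outer gaps. Far-flanked short-gap pairs had a median pair score of 0 (mean 4.60), mixed ones 1 (mean 8.13) and near-flanked ones 2 (mean 8.03). Averaged over chromosomes the far-flanked mean was 4.53 ± 2.83 and the near-flanked mean 7.62 ± 3.31. The difference was -3.09 ± 2.82, with far-flanked pairs lower on 20 of 22 chromosomes (exact permutation p = 7.2e-06, adjusted 3.34e-05). The 60 to 200 nt pairs had the same order, with a mean over all pairs of 5.16 when far-flanked and 7.51 when near-flanked. Over all short-gap pairs the mean was 7.02 and the median 1, beside a mean of 6.79 and a median of 1 over all 363390 intervals of these chromosomes.

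Set against the 60 to 200 nt pairs as a whole, short-gap pairs had no secure difference in score. Their chromosome means averaged 6.55 ± 2.94 against 6.06 ± 2.03, a difference of 0.49 ± 1.62 that was positive on 14 of 22 chromosomes (exact permutation p = 0.17, adjusted 0.212). The direction depended on the measure: the share of pairs scoring above 0 was lower by 3.39 percentage points in short-gap pairs (56.5% against 59.9%, exact permutation p = 0.017, not adjusted). A pair scores above 0 when either target does, so this share also depends on how alike both targets are. Pairs with a single target above 0 made up 12.1% of short-gap pairs and 15.6% of 60 to 200 nt pairs. The part of this in the lower share was not tested.

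Far-flanked short-gap pairs more often scored 0 than far-flanked pairs of 60 to 200 nt. Of the 911 far-flanked short-gap pairs, 430 (47.2%) scored above 0, against 34788 of 61190 (56.9%) far-flanked pairs of 60 to 200 nt. Pairs with a single target above 0 made up 12.5% and 15.8% of these classes, and their part in the difference was not tested. Over chromosomes the shares were 49.0% ± 12.9 and 58.5% ± 6.77, a difference of -9.47 ± 9.64 percentage points, negative on 18 of 22 (exact permutation p = 0.00027, adjusted 0.000622). The upper quartile of the pair scores was 3 in far-flanked short-gap pairs and 5 in far-flanked 60 to 200 nt pairs, and the 90th percentile was 11.5 and 15. At a score of 19, near where the distributions crossed, the shares were close: 71 (7.79%) of the far-flanked short-gap pairs scored 19 or more, against 4680 (7.65%) of the far-flanked 60 to 200 nt pairs. The mean scores, 4.53 ± 2.83 and 5.51 ± 1.84, differed by -0.98 ± 2.08, which missed the threshold after adjustment (exact permutation p = 0.039, adjusted 0.0607). Near-flanked pairs averaged 7.62 ± 3.31 with short gaps and 7.21 with gaps of 60 to 200 nt, a difference of 0.41 ± 2.65 (exact permutation p = 0.48, adjusted 0.481). The tests that compare far-flanked or near-flanked pairs between gap classes, and those within far-flanked pairs, were added after the values had been seen.

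**Figure D4:**
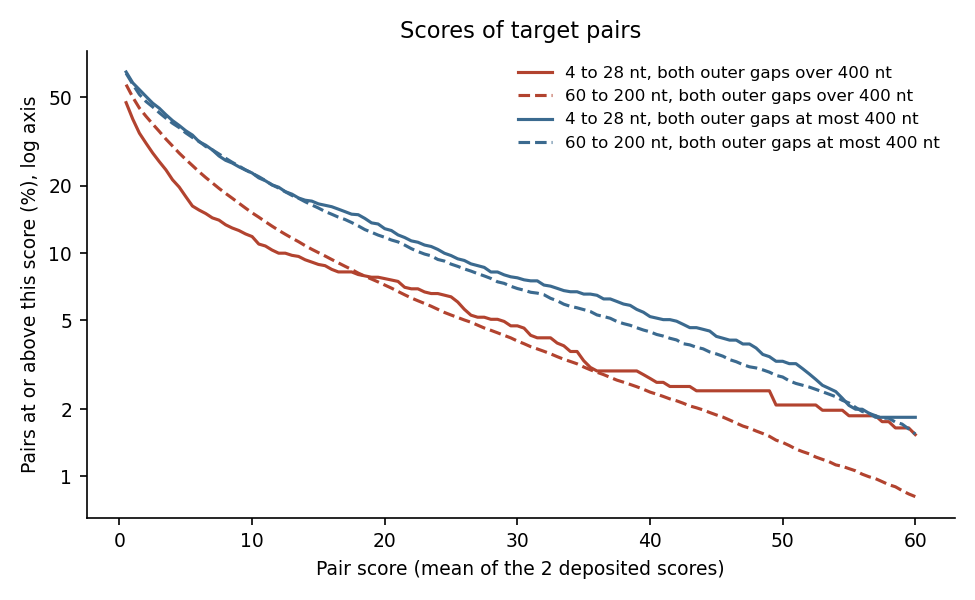
Share of pairs (%, log axis) at or above each pair score, for short gaps (solid) and gaps of 60 to 200 nt (dashed), far-flanked in red and near-flanked in blue. Above a score of 0 stand 47.2% of far-flanked short-gap pairs and 56.9% of far-flanked 60 to 200 nt pairs; at 19 the red lines meet, at 7.79% and 7.65%.

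Far-flanked pairs whose gap left 1 scored 0 in a larger share, but the difference missed the threshold after adjustment. Of the 507 far-flanked short gaps that left 1, 219 (43.2%) had a pair score above 0, against 211 of 404 (52.2%) of the others. Over the 21 chromosomes with at least 5 of each, the shares were 44.9% ± 16.3 and 53.8% ± 16.1, lower for those that left 1 on 15 of 21 (difference -8.97 ± 19.4 points, exact permutation p = 0.048, adjusted 0.0678). Their mean scores were 4.34 and 5.13 (difference -0.79 ± 3.38, exact permutation p = 0.3, adjusted 0.348). Among far-flanked 60 to 200 nt pairs, counted over all pairs, the shares above 0 were 56.0% for gaps that left 1 and 57.4% for the others. Averaged over chromosomes, their mean scores were 5.37 and 5.60 (difference -0.23 ± 0.54, exact permutation p = 0.036, adjusted 0.0607).

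Far-flanked short-gap pairs scored below the targets around them more than far-flanked 60 to 200 nt pairs did. The pair score was compared with the mean score of the next target outward on each side. Averaged over chromosomes, far-flanked short-gap pairs lay 1.19 ± 1.37 below those targets (a difference of -1.19), whereas far-flanked 60 to 200 nt pairs lay 0.28 ± 0.17 above them. These values differed by -1.46 ± 1.43, negative on 19 of 22 chromosomes (exact permutation p = 0.00012, adjusted 0.000429). The exceptions were chromosomes 1, 9 and 19. With every pair weighted equally instead of every chromosome, the difference from the outer targets was -0.73 for far-flanked short-gap pairs and 0.26 for far-flanked 60 to 200 nt pairs. Weighted in the same way, it was -1.55 for near-flanked short-gap pairs and -0.42 for near-flanked 60 to 200 nt pairs, so a score below the outer targets was not limited to far-flanked pairs. Among far-flanked short-gap pairs it was 0.54 for gaps of 4 to 12 nt, -1.96 for 13 to 21 nt and -0.63 for 22 to 28 nt, and it was -0.30 for gaps that left 1 against -1.27 for the others. These further differences were not tested. With both outer targets exactly 100 nt wide, the difference between the classes was -1.25 (exact permutation p = 0.00021). The class difference in gap length lies in the pairs themselves, and its part in this result was not tested.

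**Figure D5:**
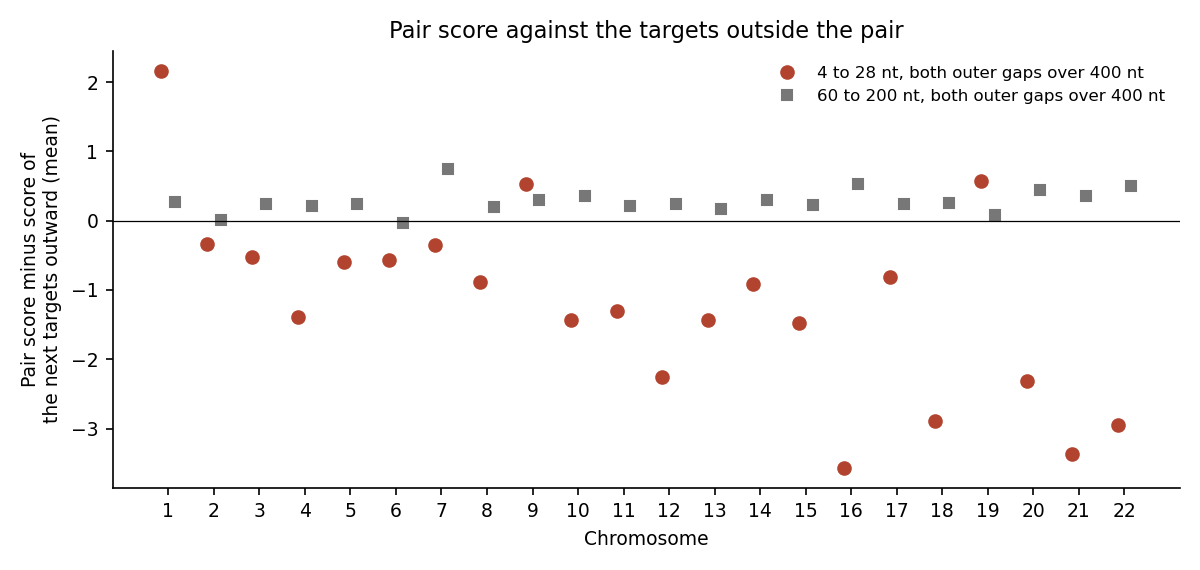
Mean of pair score minus the mean score of the next targets outward, for each of 22 chromosomes. Far-flanked short-gap pairs (circles) lie below far-flanked 60 to 200 nt pairs (squares) on 19 of 22 chromosomes, and average -1.19 against 0.28.

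The 2 targets of a short-gap pair had similar scores. Spearman's rho between the left and the right target was 0.86 over the 3012 short-gap pairs and 0.78 over the 60 to 200 nt pairs, as a description across pairs that are not independent and that differ in distance. The scores were equal in 1442 short-gap pairs (47.9%), in most of which both were 0, since 1277 (42.4%) had both targets at 0. The shares among 60 to 200 nt pairs were close to these, 45.4% equal and 41.2% with both at 0. A target at 0 facing a target at 10 or more was rare, with 8 short-gap pairs (0.266%) against 767 of 60 to 200 nt (0.851%). None of the 911 far-flanked short-gap pairs was of this kind. Neither side was favoured, as the left target was higher in 778 pairs and the right in 792.

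The 10 highest pair scores were mostly those of near-flanked pairs. The highest, 114, belonged to the gap on chromosome 19 from 50170158 to 50170175, with 122 to its left, 106 to its right and outer gaps of 116 and 144 nt. It was followed by the gap on chromosome 17 from 60501475 to 60501479 (110.5, mixed) and that on chromosome 19 from 59010383 to 59010388 (102, near-flanked). Of the 10, 7 were near-flanked, 2 mixed and 1 far-flanked, beside 41.6%, 28.2% and 30.2% of all short-gap pairs. On chromosome 19 lay 5 of the 10. Chromosome 19 also had the highest mean score among 60 to 200 nt pairs, 11.1 against an average of 6.06 over chromosomes. The far-flanked one lay on chromosome 1 from 226109445 to 226109456, with a gap of 12 nt, scores of 124 and 62, and outer gaps of 438 and 14721 nt. Of the 10 gaps 2 left 1, beside 45.1% of all short gaps and 38.0% of near-flanked ones. This difference was not tested.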

How the data were processed

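The deposited list gives each target interval of the capture design a position and a score. The design covers the outermost 100 nt of introns of GENCODE release 12 without annotated exons, strongly transcribed stretches or repeats, per the labels' protocols. The submitters' processing notes name hg19, Bowtie2, TopHat2 and bedtools. How the authors made the deposited score is not stated, so no count model was fitted. No library's depth enters.

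Intervals were sorted by start, pairs taken by width and gap, and outer gaps split at 400 nt. Differences between classes were computed per chromosome with at least 5 pairs of each class and tested by all sign flips (two-sided), and 14 tests were adjusted together. Of these, 10 were added after values of these pairs had been seen, all that were computed are included, and the alternatives in the closing section are not adjusted. Members, classes and lists were chosen with earlier results of these data known. The code was tested on simulated data. The recipe was laid over GENCODE 29 (GRCh38) with the left edge of each intron moved 1 nt inward, and used for counts, gene names within that set and exon sequences from its transcripts. The genes and sequences of that set were chosen after values were seen. Regions named were the 10 highest pair scores, the first 5 far-flanked pairs at the shortest gap, the 5 largest runs within 20 kb and the first 3 triplets of targets sharing a pair member. Alternatives are given in the closing section. Python 3.11.15, numpy 2.4.6, pandas 2.3.3, scipy 1.17.1 and matplotlib 3.10.9 were used.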

Additional observations from a re-analysis of the deposited data

How the results depend on the processing

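The number of short-gap pairs stayed within 1.5 times under its 4 alternatives (2530 to 3183). The split by outer gaps depends on the limit: far-flanked pairs were 33.1% at 300 nt and 18.8% at 1000 nt, and near-flanked ones 38.7% and 51.5%. The lower score of far-flanked short-gap pairs against near-flanked ones and the higher share leaving 1 kept direction and an unadjusted p under 0.05 in each of 5 to 7 alternatives, as did the lower share scoring above 0 and the lower score relative to outer targets. The excess of gaps leaving 1 over all short-gap pairs was 2.51 points with gaps of 4 to 27 nt, where the remainders are balanced. The score difference from all 60 to 200 nt pairs turned to -3.39 points as a share above 0, to -0.054 on the log2(score + 1) scale and to -0.98 among far-flanked pairs. That far-flanked difference of -0.98 missed 0.05 in an exact sign test (p = 0.052). The lower share above 0 of far-flanked gaps leaving 1 was -6.62 points at a limit of 1000 nt (exact permutation p = 0.3) and, at -8.97 points, missed 0.05 in the sign test (p = 0.078). Among far-flanked 60 to 200 nt pairs, the lower mean score of gaps leaving 1 was -0.21 at 300 nt, -0.23 with p = 0.52 in the exact sign test and -0.057 with gaps of 90 to 150 nt. The log10 smaller outer gap of far-flanked short-gap pairs exceeded that of 60 to 200 nt pairs by 0.095 at 1000 nt (exact permutation p = 0.00026). For gaps leaving 1 against the others it was -0.11 at 1000 nt and in the exact sign test (p = 0.19), and -0.082 without chromosomes 1 and 2. The cause was not tested. No paired analysis was possible because all libraries share 1 group and 1 list, so no replicate could be left out either. No annotation of hg19 was used here, and no depth is known behind the score.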

Other observations

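In 36 places 3 targets of 100 nt in a row were separated by 2 short gaps, so that the middle target belonged to both pairs and the 3012 pairs held 5988 distinct targets. Both gaps left 1 in 9 of the 36, where 45.1% of all short gaps, taken singly, left 1. Whether the 9 depart from that share was not tested. The first 3 by position were on chromosome 1 from 7810932 to 7811258 (gaps of 22 and 5 nt, scores 0, 0 and 0), on chromosome 1 from 155173097 to 155173430 (gaps of 6 and 28 nt, scores 4, 4 and 20) and on chromosome 3 from 9747186 to 9747505 (gaps of 16 and 4 nt, scores 0, 0 and 0). Chromosome X, outside the rule, held 92 more short-gap pairs.

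Targets are numbered along each chromosome, and some numbers are missing. No number was missing inside a short-gap pair. A number was missing next to 71 short-gap pairs (2.36%), against 822 of the 60 to 200 nt pairs (0.912%). This difference was not tested.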
